A study of Mus musculus with 10 samples.

Results

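Guanylate-binding proteins (GBPs) are large GTPases that interferons induce in many cell types. The 10 mouse genes described here, Gbp2, Gbp2b, Gbp3, Gbp4, Gbp5, Gbp6, Gbp7, Gbp8, Gbp9 and Gbp10, were taken by name from a table of 55487 genes measured in colonic intestinal epithelial cells (IECs), and each name had a single row. RNA was sequenced in 5 libraries from WT and 5 from RhoB-/- mice, all of the C57BL/6J strain. The labels number the libraries as replicates without naming the animals, so p-values measure the spread between these libraries. RhoB is a small GTPase, and the comparison asks what its loss changes in the colonic epithelium. Per the study's methods WT males were bought from one supplier, the RhoB-/- line was made at a different institute, and all mice were kept in a single facility. Whether the sequenced WT mice were littermates is not given in the sources used here, so source and genotype cannot be told apart. The labels give no treatment, age or sex, and the methods describe young adult mice kept free of specific pathogens. The cells were shaken off the opened colon after EDTA and DTT and were not sorted.

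GBPs bind and hydrolyse GTP and assemble in layers on membranes, among them the vacuoles of intracellular parasites and the surface of bacteria that reach the cytosol. There they recruit ubiquitin ligases, the autophagy conjugation machinery and inflammatory caspases. Gbp2, Gbp2b and Gbp5 end in a motif for a lipid (prenyl) anchor that holds them on membranes. Interferon gamma is the best known inducer of the family, with the transcription factor IRF1 among those that act for it, and type I and type III interferons can raise many of the same genes.

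Values are TPM, the share of all transcripts in a library that a gene takes, corrected for its length. TPM keeps no sequencing depth, so no counting error can be given, and in tissue isolates fewer cells of a type and less RNA per cell cannot be told apart. Rhob itself measured 170.5 to 388.7 TPM in WT mice. It was listed at 0.09, 0.10, 0.35 and 0.57 TPM in RhoB-/- replicates 1 to 4. The library labelled RhoB-/- replicate 5 held 110.9 TPM of Rhob, which goes against its label, so results are also given without it. Epithelial markers were abundant in every library, with Epcam at 968.75 to 1638.82 TPM and Krt8 at 3938.43 to 6127.69 TPM over all 10 libraries. Markers of T cells and other leukocytes were low but higher in RhoB-/- libraries, and their values are given beside the family's total.

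The genes lie in 2 clusters with 5 members each. By GENCODE release M21 on GRCm38, the cluster on chromosome 3 runs from Gbp5 (142493978 to 142522344) over Gbp7 (142530342 to 142550149), Gbp3 (142560026 to 142573209) and Gbp2b (142594847 to 142619179) to Gbp2 (142620602 to 142638008), all on the plus strand. The cluster on chromosome 5 lies on the minus strand and holds Gbp8 (105014150 to 105139540), Gbp9 (105077630 to 105139539), Gbp4 (105115767 to 105139586), Gbp10 (105215699 to 105239533) and Gbp6 (105270702 to 105293698). The annotated span of Gbp8 contains Gbp9 and nearly all of Gbp4, so these 3 genes share a start region.

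**Figure D1:**
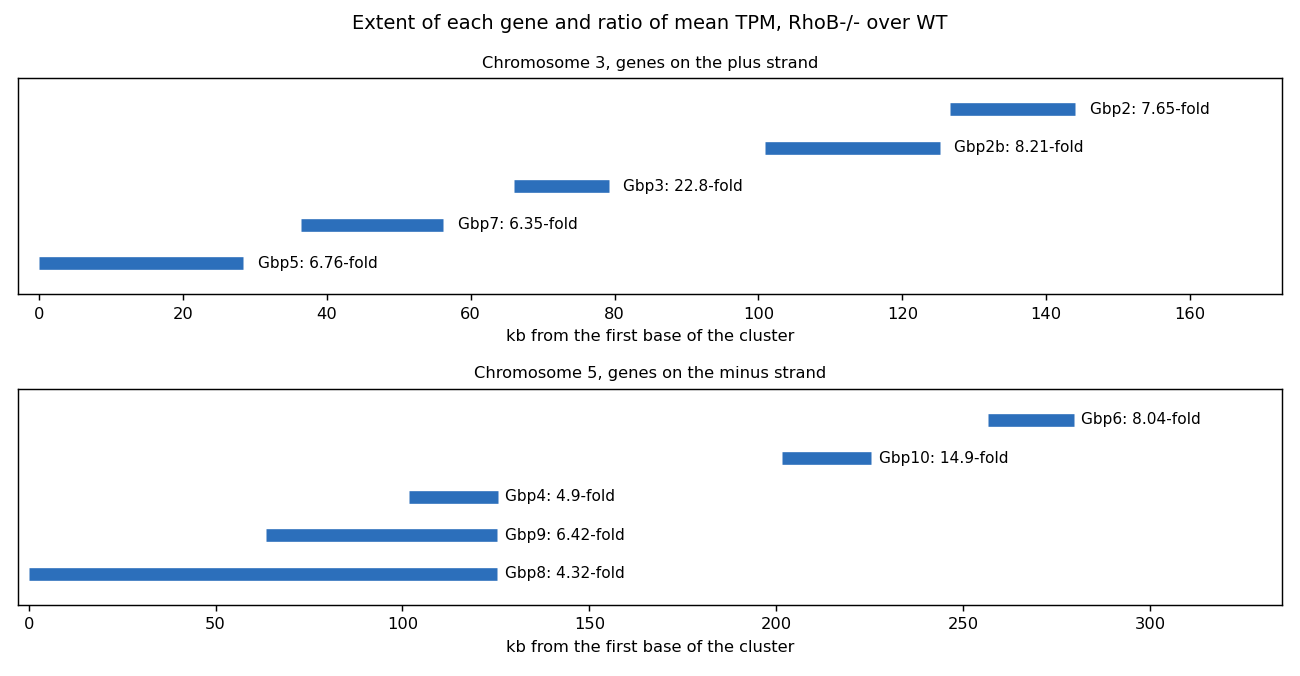
Extent of each of the 10 genes, in kb from the first base of its cluster, with the ratio of mean TPM in RhoB-/- over WT mice printed beside it (n = 5 libraries a genotype). Ratios ranged from 4.32-fold for Gbp8 to 22.8-fold for Gbp3, and both clusters hold genes on either side of 8-fold.

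The sequences before the RefSeq starts of the chromosome 3 members are shown with their matches to 2 motifs that transcription factors bind. RefSeq starts on GRCm38.p6 were at hand for the 5 members on chromosome 3 and not for Gbp4, Gbp6, Gbp8, Gbp9 and Gbp10. In the 300 bases from 250 before to 50 after each start, 2 motifs were searched on both strands. The IRF motif, GAAA then any 2 bases then GAAA, is the core of the element bound by IRF factors. The STAT motif, TTCNNNGAA, is the core of the element bound by STAT dimers. The IRF motif was found in 3.44% of all 32851 promoters in the RefSeq table, and the STAT motif in 8.30%. Capitals mark both kinds of motif, and no IRF motif overlaps a STAT motif. The IRF motif lies on the minus strand in each of the 5 genes and therefore reads TTTC, any 2 bases, TTTC. The runs start 250 bases before the RefSeq start and are on the plus strand of GRCm38.p6: Gbp5 at chr3:142496684-142496924, Gbp7 at chr3:142530086-142530335, Gbp3 at chr3:142559794-142560043, Gbp2b at chr3:142594597-142594846 and Gbp2 at chr3:142620413-142620626.

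Gbp5: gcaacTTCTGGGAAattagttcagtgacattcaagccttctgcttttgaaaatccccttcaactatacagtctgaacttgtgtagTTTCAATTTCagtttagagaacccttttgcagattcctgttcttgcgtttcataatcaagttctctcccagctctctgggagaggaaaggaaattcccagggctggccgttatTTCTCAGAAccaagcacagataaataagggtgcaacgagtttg

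Gbp7: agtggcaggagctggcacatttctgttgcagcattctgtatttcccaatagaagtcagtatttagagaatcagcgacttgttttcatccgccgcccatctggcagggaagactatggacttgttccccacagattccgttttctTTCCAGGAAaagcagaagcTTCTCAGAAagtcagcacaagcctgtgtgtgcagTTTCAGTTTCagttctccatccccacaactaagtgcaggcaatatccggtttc

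Gbp3: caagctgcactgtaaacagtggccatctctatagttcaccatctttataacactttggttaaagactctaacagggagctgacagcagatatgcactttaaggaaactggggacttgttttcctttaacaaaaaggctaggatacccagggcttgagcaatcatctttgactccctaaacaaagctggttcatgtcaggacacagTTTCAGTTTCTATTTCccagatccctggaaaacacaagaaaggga

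Gbp2b: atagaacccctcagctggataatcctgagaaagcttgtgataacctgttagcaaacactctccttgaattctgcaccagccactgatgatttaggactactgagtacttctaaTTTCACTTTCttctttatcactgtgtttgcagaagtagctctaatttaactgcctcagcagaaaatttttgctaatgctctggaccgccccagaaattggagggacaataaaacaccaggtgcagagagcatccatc

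Gbp2: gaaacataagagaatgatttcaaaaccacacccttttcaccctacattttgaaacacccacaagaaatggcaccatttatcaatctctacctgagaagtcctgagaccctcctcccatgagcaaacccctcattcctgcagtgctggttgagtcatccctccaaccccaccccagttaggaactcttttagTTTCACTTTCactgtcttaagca

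Each of these 5 promoters held the IRF motif. It lay 165 to 156 bases before the RefSeq start in Gbp5 and 137 to 128 bases before it in Gbp2b. In Gbp7 and Gbp2 it lay nearer, at 53 to 44 and at 59 to 50 bases before the start. The RefSeq and GENCODE starts differ for some genes. By GENCODE, Gbp5 starts at 142493978, so its whole run lies inside the annotated gene. Gbp2 starts at 142620602 by GENCODE, so its motif lies just inside the annotated gene. Gbp3 had a pair of overlapping copies at 45 to 36 and 39 to 30 bases before the start, which read as a single run of capitals. The STAT motif was present only in Gbp5, at 245 to 237 and 52 to 44 bases before the start, and in Gbp7, at 106 to 98 and 87 to 79 bases before it. A later RefSeq start of Gbp3 had neither motif in its window. A match describes letters only, and binding was not measured.

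Every member was higher in RhoB-/- mice. For each of the 10 genes the lowest RhoB-/- library lay above the highest WT library, as it did for 3.41% of the 28114 genes with TPM above 0 in any library. The separation of all 10 genes necessarily remained without the library labelled RhoB-/- replicate 5, since leaving out a library cannot create overlap. WT epithelium held little of any member, with means from 0.082 TPM for Gbp10 to 1.54 TPM for Gbp6, and in RhoB-/- mice means ran from 0.608 TPM for Gbp5 to 12.3 TPM for Gbp6.

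**Figure D2:**
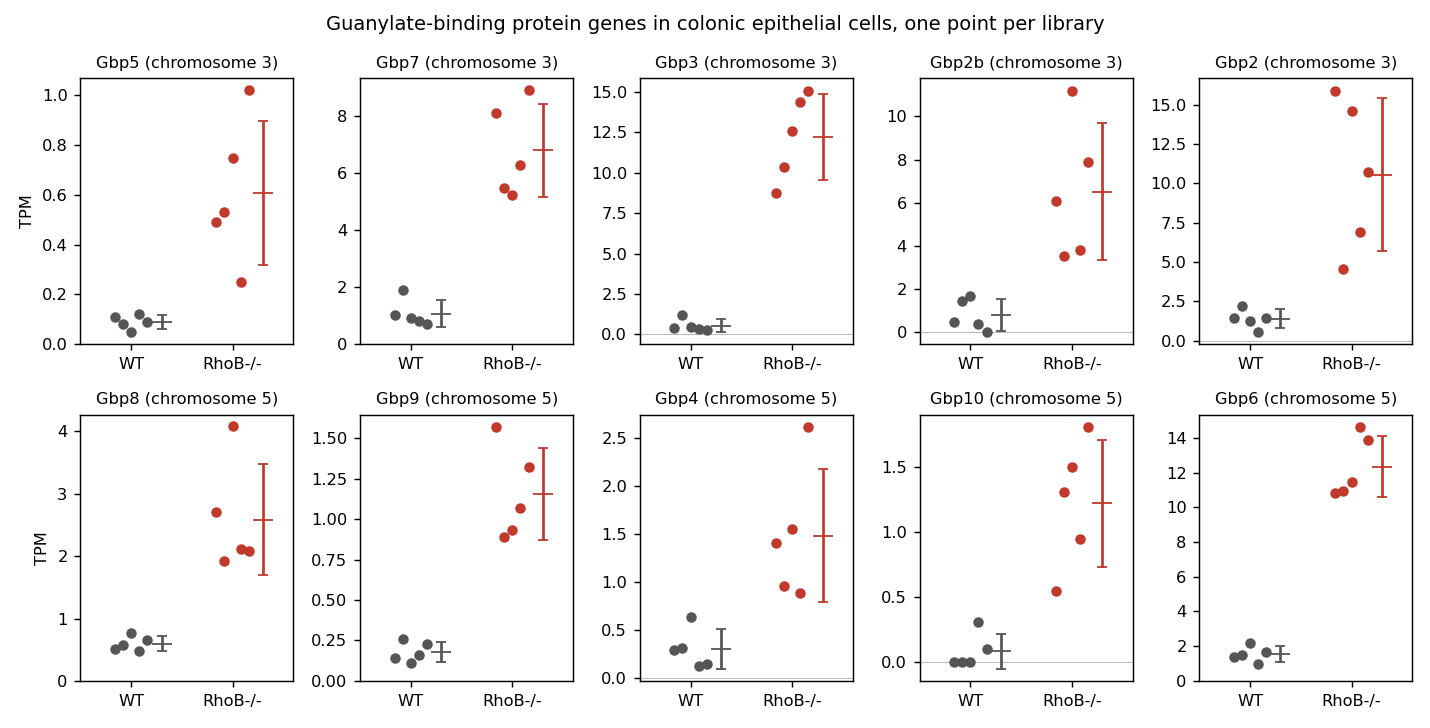
TPM of the 10 genes in each of 5 WT (grey) and 5 RhoB-/- (red) libraries, replicates 1 to 5 from left to right, with the mean and SD beside the points and a separate vertical scale for each gene. In every panel the red points lie above the grey ones. Gbp4 comes close to overlapping, with its lowest RhoB-/- library at 0.88 TPM and its highest WT library at 0.64 TPM.

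Genes were tested with limma on log2(TPM + 1) when their mean over the 10 libraries was at least 1 TPM, and called at an adjusted p below 0.05 (Benjamini-Hochberg over the 12870 genes tested) with a fold change above 1.5. Of these genes 5.58% were called higher in RhoB-/- mice. Gbp2, Gbp2b, Gbp3, Gbp6, Gbp7 and Gbp8 reached the filter and each was called higher. Gbp2b, Gbp3 and Gbp8 had WT means under 1 TPM and passed the filter only through their RhoB-/- values, so the count of 6 is not read against that share. The other 4 members, Gbp4, Gbp5, Gbp9 and Gbp10, fell below the filter and were compared by an exact permutation test, two-sided, over all ways to label 5 of 10 libraries, which gives 0.00794 for any gene without overlap. Fold changes from the fit are on the log2(TPM + 1) scale and understate the change of such low genes. The median log2 fold change of all genes tested was -0.13, so relative to the typical gene each member's change is larger by that amount, from 1.26 for Gbp8 to 3.24 for Gbp3.

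On chromosome 3, Gbp2 encodes a prenylated GBP that gathers on the vacuoles of Toxoplasma and on cytosolic bacteria. Its TPM was 1.46, 2.23, 1.22, 0.54 and 1.43 in WT replicates 1 to 5. In RhoB-/- replicates 1 to 5 it was 15.89, 4.52, 14.59, 6.92 and 10.74. Replicates 1 and 3 stood highest and replicate 2 lowest, still above every WT library. The mean rose from 1.38 ± 0.605 to 10.5 ± 4.86 TPM (SD, n = 5), and limma put the log2 fold change at 2.20 (standard error 0.30 and adjusted p = 0.00049).

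Gbp2b, long known in mice as Gbp1, is the closest relative of Gbp2 and lies just upstream of it. Its TPM was 0.48, 1.43, 1.68 and 0.37 in WT replicates 1 to 4, and it was listed at 0 in WT replicate 5. The RhoB-/- values were 6.1, 3.53, 11.2, 3.83 and 7.87 TPM. Replicate 3 was the highest, and replicates 2 and 4, the lowest, still lay above the highest WT value. Its log2 fold change was 2.06 (standard error 0.33 and adjusted p = 0.00144). The open reading frames of Gbp2 and Gbp2b were 82.5% identical, but their transcripts shared no stretch of 150 bases. At 75 bases they shared 0.95% of the stretches of Gbp2.

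Gbp3 showed the largest ratio in the family. It measured 0.42, 1.22, 0.46, 0.33 and 0.25 TPM in WT mice and 8.76, 10.36, 12.6, 14.35 and 15.09 TPM in RhoB-/- mice. Replicate 2 stood apart among the WT libraries, and no RhoB-/- library was under 8.76 TPM. The mean went from 0.536 ± 0.391 to 12.2 ± 2.66 TPM, a ratio of 22.8. Its fitted log2 fold change, 3.11 with a standard error of 0.19 (adjusted p = 6.2e-07), was the 44th largest increase among the genes tested.

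Gbp7, whose product is tied to the assembly of the phagocyte oxidase on vacuoles, measured 1.04, 1.89, 0.91, 0.82 and 0.7 TPM in WT mice. In RhoB-/- mice it measured 8.11, 5.49, 5.23, 6.3 and 8.91 TPM. The groups were well apart, with replicates 1 and 5 highest. The mean rose from 1.07 ± 0.474 to 6.81 ± 1.63 TPM, and the log2 fold change was 1.92 (standard error 0.18 and adjusted p = 3.42e-05). A processed pseudogene inside Gbp7, Gm43802, shares 8.77% of the 150-base stretches of Gbp7 transcripts. It was listed at 0 to 0.42 TPM in WT mice but at 0.59 to 5.39 TPM in RhoB-/- mice, so reads of the pair can be exchanged, and the value of Gbp7 is uncertain to that extent.

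Gbp5, a prenylated GBP known for its link to the NLRP3 inflammasome in macrophages, was the scarcest member in RhoB-/- mice. Its WT values were 0.11, 0.08, 0.05, 0.12 and 0.09 TPM, and its RhoB-/- values 0.49, 0.53, 0.75, 0.25 and 1.02 TPM. The library labelled RhoB-/- replicate 5 was the highest. All of these values are low, and the ratio of means was 6.76 (exact permutation p = 0.00794).

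On chromosome 5, Gbp6 had the highest mean of the family in both genotypes, but it exceeded the next member in only 3 of 5 libraries of each. It measured 1.39, 1.49, 2.2, 0.96 and 1.64 TPM in WT mice and 10.83, 10.93, 11.48, 14.63 and 13.86 TPM in RhoB-/- mice. It varied least among the RhoB-/- libraries, with an SD of 14.4% of the mean. The mean rose from 1.54 ± 0.449 to 12.3 ± 1.77 TPM, with a fitted change of 2.40 in log2 units (standard error 0.15 and adjusted p = 6.04e-07).

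Gbp10 lies next to Gbp6, and their open reading frames were 98.4% identical. Gbp10 was listed at 0 in WT replicates 1, 2 and 3 and at 0.31 and 0.1 TPM in WT replicates 4 and 5. It reached 0.55, 1.31, 1.5, 0.95 and 1.81 TPM in RhoB-/- mice (exact permutation p = 0.00794). Its ratio of means, 14.9, rests on the WT libraries in which it was listed above 0. Of all 150-base stretches, 59.1% of those of Gbp6 and 66.6% of those of Gbp10 occurred in transcripts of another gene, chiefly Gm43302, an annotated gene that spans both and was listed at no more than 0.32 TPM in any library. How reads were divided among Gbp6, Gbp10 and Gm43302 therefore depends on the estimate made by RSEM, the program that the authors used, and their separate values are less certain than their sum.

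Gbp8 measured 0.51, 0.58, 0.77, 0.48 and 0.65 TPM in WT mice and 2.7, 1.93, 4.08, 2.12 and 2.08 TPM in RhoB-/- mice. Its highest WT library and its lowest RhoB-/- library stood at 0.77 and 1.93 TPM, and its ratio of means, 4.32, was the smallest in the family. Its log2 fold change was 1.14 (standard error 0.18 and adjusted p = 0.00155).

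Gbp9 was listed at 0.14, 0.26, 0.11, 0.16 and 0.23 TPM in WT mice and at 1.57, 0.89, 0.93, 1.07 and 1.32 TPM in RhoB-/- mice, a ratio of 6.42. Gbp4 was listed at 0.29, 0.31, 0.64, 0.12 and 0.15 TPM in WT mice and at 1.4, 0.96, 1.55, 0.88 and 2.61 TPM in RhoB-/- mice, a ratio of 4.90. Neither gene had overlapping groups (exact permutation p = 0.00794 for each). These members and Gbp6 are close in sequence. The open reading frames of Gbp9 and Gbp6 were 89.6% identical and those of Gbp4 and Gbp6 87.2%. At 150 bases Gbp8 and Gbp9 shared no stretch with another gene and Gbp4 shared 0.0254%. At 75 bases Gbp8 shared 8.04%, Gbp9 3.61% and Gbp4 3.08%, so shorter reads of these members can be exchanged.

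A fit without the filter, over the 28114 genes with TPM above 0 in any library, included all 10 members. Each passed an adjusted p of 0.05, and 9 of 10 also passed the fold change of 1.5, against 2.4% of all genes in that fit called higher. Gbp5 was the exception, with a log2 fold change of 0.54 (adjusted p = 0.0192 from limma). Here the log2 fold change was 1.02 for Gbp10 (adjusted p = 0.00576), 0.90 for Gbp4 (adjusted p = 0.0206) and 0.86 for Gbp9 (adjusted p = 0.0011). The pseudocount weighs on these values, because a WT level near 0 and a RhoB-/- level near 1 TPM differ by about 1 on this scale whatever their ratio.

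**Figure D3:**
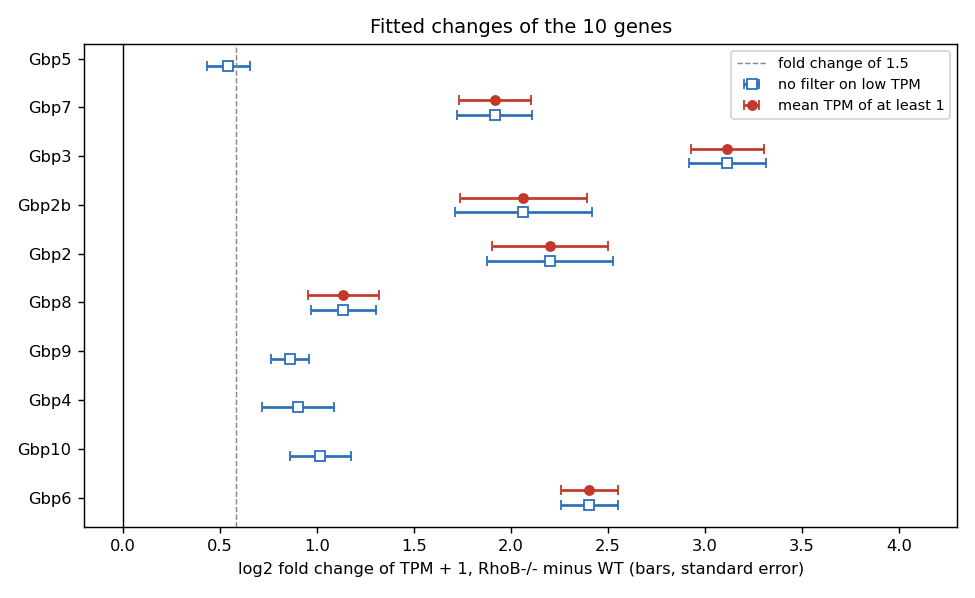
Log2 fold change of TPM + 1, RhoB-/- minus WT, with its standard error, for the 6 members that passed the filter (red circles) and for all 10 members in the fit without a filter (open squares). All lie above 0, and Gbp5, at 0.54, is the only one below the dashed line at a fold change of 1.5.

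Other rows bearing a Gbp name stayed near 0. Gbp11, a pseudogene next to Gbp6, was listed at 0.05 TPM or less in every library, and Gbp2-ps, a pseudogene beyond Gbp2, was listed at 0 in all 10.

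The summed TPM of the 10 members was 5.84, 9.49, 8.04, 4.21 and 5.24 in WT replicates 1 to 5. In RhoB-/- replicates 1 to 5 it was 56.4, 40.45, 63.91, 51.3 and 65.31. The mean of the sum thus went from 6.56 ± 2.15 to 55.5 ± 10.1 TPM, a ratio of 8.45. The chromosome 3 members summed to 3.87 ± 1.87 and 36.7 ± 8.51 TPM, a ratio of 9.49, and the chromosome 5 members to 2.70 ± 0.639 and 18.8 ± 2.26 TPM, a ratio of 6.96. The difference between the clusters was not tested.

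Some markers of other cell types were higher in RhoB-/- libraries and others were not. Of all genes tested, 5.58% were called higher. Of 10 leukocyte markers, 6 were tested and 5 were called higher (Ptprc, Cd3e, Cd3g, Cd8a and Nkg7). Cd8a had a WT mean under 1 TPM and reached the filter through its RhoB-/- values, so this count is not read against that share. The list summed to 6.56 to 15.03 TPM in WT and 24.61 to 35.61 TPM in RhoB-/- libraries. The B cell marker Cd79a was listed at 0.12 TPM or less in WT libraries and reached 6.09 TPM in the library labelled RhoB-/- replicate 5. Of 10 macrophage and dendritic cell markers, 3 were tested and Cd68 was called higher. Cd68 and Lyz2 had WT means under 1 TPM and reached the filter through their RhoB-/- values, so this count is not read against that share either. C1qa, also tested, was not called (2.50 ± 2.60 TPM in WT and 2.63 ± 2.23 TPM in RhoB-/- libraries). The list gave sums of 3.72 to 10.17 and 5.32 to 17.83 TPM in WT and RhoB-/- libraries, and Fcgr1 was at 0.05 TPM or less throughout. Of 10 stromal and endothelial markers, 3 were tested and Dcn and Vim were called higher, with sums of 8.88 to 12.09 and 13.48 to 55.16 TPM. The highest sums of this list and of the macrophage and dendritic cell list came from the library labelled RhoB-/- replicate 5. Dcn and Vim were also highest in that library, at 24.51 and 18.64 TPM. Pecam1, below the filter, was 0.974 ± 0.175 TPM in WT and 0.986 ± 0.299 TPM in RhoB-/- libraries, and Cdh5 was at 0.03 TPM or less throughout. Of 12 epithelial markers 3 were called higher (Krt20, Vil1 and Fabp2). Without the library labelled RhoB-/- replicate 5, the 5 leukocyte markers and Cd68 were still called, and 1 epithelial and 1 stromal marker were. The part of these cells in the family's values was not tested.

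The members' shares of the sum were not tested, and their ranges overlapped between the genotypes for every member but Gbp3. Gbp3 supplied 4.77% to 12.9% of the family's TPM in the WT mice but 15.5% to 28.0% in the RhoB-/- mice, without overlap. Gbp8 supplied 6.11% to 12.4% in WT and 3.18% to 6.38% in RhoB-/- libraries, with a slight overlap. Gbp6 supplied 24.2% ± 5.80 and 22.8% ± 4.73, and Gbp2 20.8% ± 6.37 and 18.4% ± 6.99, so that their shares overlapped widely.

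Ordered by mean TPM, the WT levels ran Gbp6, Gbp2, Gbp7, Gbp2b, Gbp8, Gbp3, Gbp4, Gbp9, Gbp5 and Gbp10. Of the 9 neighbouring pairs in that order, Gbp9 over Gbp5 was the only one kept in all 5 libraries. In RhoB-/- mice the order ran Gbp6, Gbp3, Gbp2, Gbp7, Gbp2b, Gbp8, Gbp4, Gbp10, Gbp9 and Gbp5. There Gbp2b exceeded Gbp8 and Gbp9 exceeded Gbp5 in 5 of 5 libraries, and the other neighbours changed places in at least 1 library. Gbp3 moved from the sixth place to the second. An exact paired test over 5 libraries cannot give a p below 0.0625, so none of these neighbours can be told apart by it.

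Within the RhoB-/- group, members were highest in different libraries. Gbp2 was highest in replicates 1 and 3 and spread 3.52-fold between its highest and lowest library, and Gbp2b and Gbp8 were highest in replicate 3. Gbp3 and Gbp6 were highest in replicates 5 and 4 and spread 1.72-fold and 1.35-fold. Of the 10 members, 4 had replicates 3 and 5 as their highest (Gbp2b, Gbp4, Gbp5 and Gbp10), and each other pair of libraries seen, 1 and 3, 1 and 5, and 4 and 5, held 2 members. The called genes of the related lists were also highest in different libraries. Of 8 called immunity-related GTPases, 4 were highest in replicates 3 and 5 (Irgm1, Irgm2, Igtp and Ifi47), 3 in replicates 1 and 3 (Iigp1, Tgtp1 and Tgtp2) and 1 in replicates 4 and 5 (Gm5431). Of 9 called interferon signalling genes, 4 were highest in replicates 4 and 5 (Stat2, Irf7, Irf9 and Usp18), 2 in replicates 1 and 3 (Socs1 and Nlrc5), 2 in replicates 3 and 5 (Irf1 and Batf2) and 1 in replicates 1 and 5 (Ifnlr1). The genes of these lists were chosen for this description after the data were seen. With 5 libraries and no label that divides them, the pattern is given as values only.

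**Figure D4:**
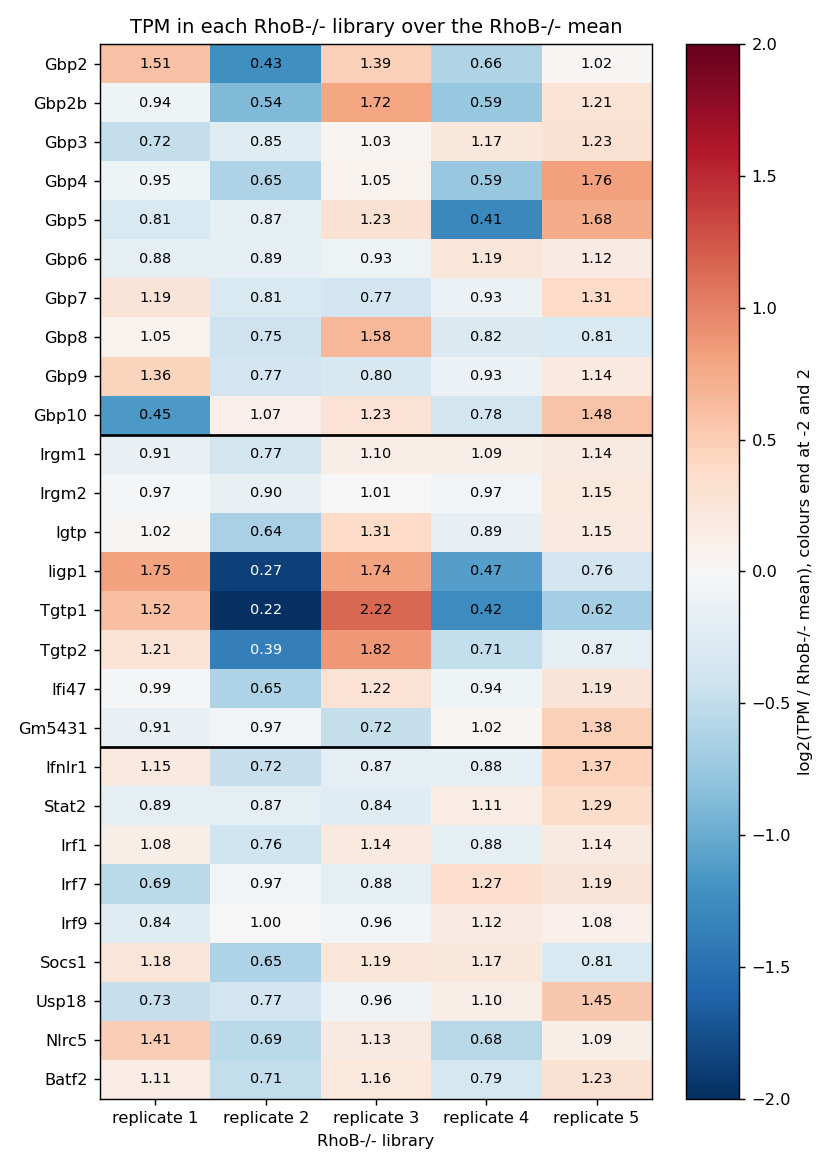
TPM in each RhoB-/- library (columns) over the mean of the 5 RhoB-/- libraries, for the 10 family members (top block), the 8 called immunity-related GTPases (middle block) and the 9 called interferon signalling genes (bottom block). Colour gives the log2 of that ratio. Gbp3 and Gbp6 are highest in replicates 4 and 5, whereas Gbp2 and Gbp8 are highest in replicates 1 and 3.

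Among the inducers and regulators, Ifng, the gene of interferon gamma itself, was listed at 0.17 to 1.17 TPM in WT and 0.19 to 1.13 TPM in RhoB-/- libraries and did not pass the test (exact permutation p = 0.571). A list of interferon signalling genes, which holds receptors, kinases, factors and feedback regulators of type I, type II (gamma) and type III interferon, had 24 genes tested. Of these, 9 were called higher and none lower by limma, where 5.58% and 7.13% of all genes tested were. Nlrc5, which was called, and Ciita, which was not, had WT means under 1 TPM and reached the filter through their RhoB-/- values, so the count is not read against those shares. After centring the libraries on their median deviation 12 were called higher, Ifngr1, Ifngr2 and Jak2 being added. The median log2 fold change of the list was 0.52. Usp18, a protease that removes ISG15 and restrains the interferon receptor, rose from 1.36 ± 0.519 to 44.6 ± 13.0 TPM (log2 fold change 4.25, adjusted p = 1.14e-07). Nlrc5, the transactivator of MHC class I genes, rose from 0.930 ± 0.422 to 15.8 ± 4.96 TPM (log2 fold change 3.10, adjusted p = 1.69e-06). Irf7, which amplifies type I interferon responses, rose from 54.3 ± 19.4 to 445.0 ± 104.3 TPM (log2 fold change 3.05, adjusted p = 3.89e-06).

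Transcription factors of interferon signalling rose too. Stat2 went from 12.9 ± 2.82 to 55.4 ± 10.6 TPM (log2 fold change 2.03, adjusted p = 6.53e-06). Irf9, its DNA-binding partner, rose by 1.55 in log2 units (adjusted p = 1.97e-06). Irf1, which interferon gamma induces, went from 78.0 ± 19.3 to 122.2 ± 21.2 TPM (log2 fold change 0.66, adjusted p = 0.0221), and its groups overlapped. Its call was lost without WT replicates 1, 2 or 4 or RhoB-/- replicates 1 or 5, each left out in turn (adjusted p = 0.0444 to 0.066, log2 fold change 0.56 to 0.65), and also when mitochondrial genes were left out of the scaling (log2 fold change 0.58).

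The immunity-related GTPases, which act with GBPs on parasite vacuoles, were mostly called higher. Of the 16 listed genes 15 had a row and 9 were tested, with a median log2 fold change of 2.56. By limma 8 of the 9 were called higher and none lower, where 5.58% and 7.13% of all genes tested were. Of the 9, 4 had WT means under 1 TPM and passed the filter only through their RhoB-/- values. The count is therefore not read against those shares. Ifi47 rose from 3.75 ± 1.79 to 56.9 ± 13.1 TPM (log2 fold change 3.66, adjusted p = 1.69e-06). The rise was 3.33 log2 units in Gm5431 (adjusted p = 2.94e-07) and 3.13 in Igtp, also known as Irgm3 (adjusted p = 7.47e-06).

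None of 10 autophagy conjugation genes and none of 9 protein prenylation genes was called by limma, with median log2 fold changes of 0.00 and -0.19. Since 5.58% of all genes tested were called higher and 7.13% lower, few calls fall in lists this short at the background rate, and nothing is read from their absence. At an unadjusted p below 0.05 and any fold change, 3 autophagy genes passed, Gabarap and Gabarapl2 higher and Atg7 lower. The 3 prenylation genes that passed, Fnta, Fntb and Rabggtb, were lower. Atg7 (log2 fold change -0.41, adjusted p = 0.0267 from limma) and Rabggtb (log2 fold change -0.49, adjusted p = 0.0325 from limma) missed only the fold change. After centring the libraries on their median deviation, Gabarapl2 was called higher (log2 fold change 0.59, adjusted p = 0.007 from limma). Of 12 tested genes for vacuole recognition and ubiquitin, 7 were called higher and none lower (median log2 fold change 0.74). Rnf213, a ubiquitin ligase that coats cytosolic bacteria, rose from 17.1 ± 3.72 to 109.9 ± 29.3 TPM (log2 fold change 2.60, adjusted p = 2.27e-06). Ube2l6 (log2 fold change 2.33, adjusted p = 1.7e-06) and Uba7 (log2 fold change 1.87, adjusted p = 3.19e-06), enzymes that conjugate ISG15, rose as well.

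Of 13 tested genes for the inflammasome and pyroptosis, which GBPs promote by exposing bacterial lipopolysaccharide, 4 were called higher and 1 lower (median log2 fold change 0.34). Of all genes tested 5.58% were called higher and 7.13% lower. Il1b, which was not called, had a WT mean under 1 TPM and reached the filter through its RhoB-/- values, so the count is not read against those shares. Casp4, the caspase that binds lipopolysaccharide, rose from 22.0 ± 5.09 to 51.2 ± 12.5 TPM (log2 fold change 1.18, adjusted p = 0.0015). Gsdmc2, a gasdermin of colonic epithelium, rose from 305.5 ± 83.3 to 1144 ± 293.8 TPM (log2 fold change 1.90, adjusted p = 0.000107). Il18, an epithelial cytokine that caspases activate, fell from 89.2 ± 23.1 to 45.9 ± 7.56 TPM (log2 fold change -0.91, adjusted p = 0.00784). Among 11 tested large GTPases of other families, Mx2 (log2 fold change 3.15, adjusted p = 1.69e-06) and Mx1 (log2 fold change 1.09, adjusted p = 9.17e-05) were called higher by limma. Mx2, with a WT mean of 0.496 TPM, reached the filter through its RhoB-/- values, so this count is not read against those shares either. The atlastins Atl2 and Atl3, relatives of GBPs that shape the endoplasmic reticulum, were tested and not called.

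**Figure D5:**
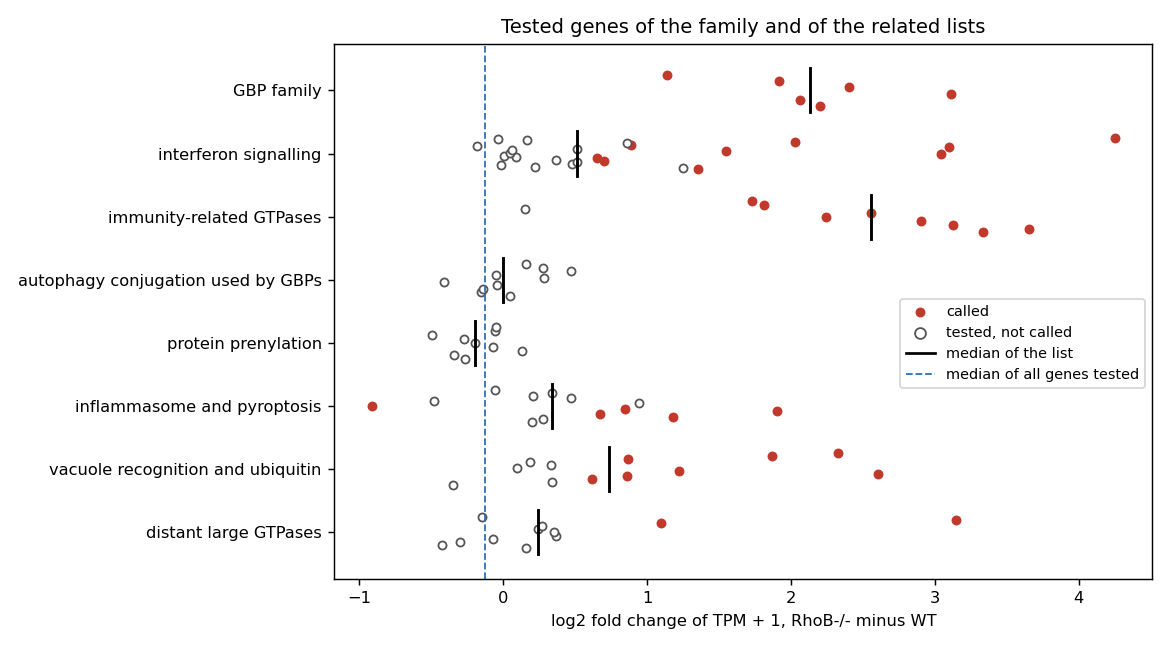
Log2 fold change of TPM + 1, RhoB-/- minus WT, of each tested gene (points, filled red where called) of the GBP family and 7 related lists, with the median of each list (black bar) and of all 12870 genes tested (dashed line, at -0.13). The tested GBP members lie between 1.14 and 3.11, and the autophagy and prenylation genes between -0.49 and 0.47.

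The nearest other genes on the same chromosomes, chosen after the data were seen, had no gene called higher among those tested. Distances were measured with the edge pseudogenes Gbp2-ps and Gbp11 counted as part of the clusters. Of 10 protein-coding genes within 500 kb, 6 were tested. At the rates over all genes tested, 5.58% called higher and 7.13% lower, few calls fall among 6 genes. Nothing is read from their number. Kyat3, a kynurenine aminotransferase gene 32.0 kb beyond Gbp2-ps on chromosome 3, was called lower by limma (log2 fold change -0.81, adjusted p = 0.00205). Gtf2b, Pkn2, Pdlim5, Lrrc8b and Lrrc8d had log2 fold changes from -0.04 to 0.23 and did not pass the test. Below the filter, Lrrc8c, 172.9 kb beyond Gbp11 on chromosome 5, was higher in RhoB-/- libraries (0.084 ± 0.029 and 0.212 ± 0.058 TPM, exact permutation p = 0.00794) by the test used for the members below the filter. Such a separation upwards held for 3.41% of genes with TPM above 0 in any library. Zfp951 was lower (0.914 ± 0.297 and 0.438 ± 0.152 TPM, exact permutation p = 0.0238).

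The genes whose spread between libraries of a genotype was most like the mean of the tested members did not pass the test of genotype. Likeness was Pearson's r over the 10 libraries, after each genotype's mean was subtracted, to the mean log2(TPM + 1) of the 6 tested members. It was 0.96 for Sertad3, 0.95 for Phf23, 0.95 for Ppp1r12c, 0.93 for Frg1 and 0.93 for Bicdl2, the highest of all genes tested outside the family. Their log2 fold changes ran from -0.06 to 0.21, and none was called. These values come from libraries that share one table and one scaling, and are a description. They were picked as the highest among all genes tested, and such a pick over 10 libraries can give a high r between unrelated genes. Between pairs of the tested members themselves, r ran from -0.26 to 0.64.

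Without the library labelled RhoB-/- replicate 5, each of the 6 tested members was still called. The log2 fold change was then 2.16 for Gbp2, 1.98 for Gbp2b, 3.04 for Gbp3, 2.36 for Gbp6, 1.82 for Gbp7 and 1.18 for Gbp8, with adjusted p from 6.82e-06 to 0.00661 by limma. The related lists then held 27 genes called higher in place of 30, having lost Casp8, Irf1 and Lgals8.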

How the data were processed

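RNA from colonic IECs was sequenced as paired-end libraries. The authors trimmed the reads, and per their processing notes used HISAT2, StringTie, RSEM and edgeR with the build GRCm38.p6 (no versions given). The deposited values are TPM that the authors estimated per gene with RSEM, which also assigns reads shared by near-identical genes. Read depth is not kept in TPM. Columns were matched to samples by name. Here log2(TPM + 1) was fitted with limma (version 3.58.1 in R 4.3.3, lmFit and eBayes with trend) over the 12870 genes with a mean of at least 1 TPM. Errors beside TPM are SD between libraries. The fit was tested on simulated data. Shared sequence was counted as identical stretches of 150 bases, or of 75 where stated, between GENCODE M21 transcripts. Identity was taken from global alignment of the longest open reading frames. All 10 identifiers were found in that release.

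The members and gene lists were chosen with earlier results of these data known. Named genes were all members, other rows with a Gbp name, Rhob, Ifng, Stat2, Irf1 and Irf9, the 3 called genes of each list with the largest changes, and the 5 genes most like the mean of the tested members. Genes left out of the lists are not reported here. Neighbours, markers with values, autophagy and prenylation genes, and genes that gained or lost a call were named after their values were seen. Replicate numbers 1 to 5 occur in both genotypes but name different mice. Alternatives were another pseudocount, other filters, scalings and thresholds, a fit without trend, a replicate block, and each library left out in turn. All 10 libraries entered the main fit, and no protein sequence was used here.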

Additional observations from a re-analysis of the deposited data

Results flagged for a closer look

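Single libraries stood far from the rest of their genotype in 3 of the 30 groups of 5 values examined (the 10 members, Rhob, Ifng, Stat2, Irf1 and Irf9 in each genotype), where chance gives about 1 in 20, or 1.5. Gbp3 was 1.22 TPM in WT replicate 2, and Gbp7 was 1.89 TPM in the same library, each above the other WT libraries. That library is the WT library with the highest summed TPM of the family, 9.49. Rhob was 110.87 TPM in the library labelled RhoB-/- replicate 5, against 0.57 TPM or less in the other RhoB-/- libraries. The cause of these values was not tested.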

How the results depend on the processing

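All 6 tested members kept their direction and their call in every alternative that tested them, 105 comparisons in all. Raising the filter to a mean of 5 TPM left only Gbp2, Gbp3 and Gbp6 to test, so the count of called members was 3 by construction, without a filter it was 9, and without mitochondrial genes it was 7, since Gbp4 then passed the filter. Leaving out each library in turn gave 6 called members every time. The 4 members below the filter also passed the exact test each time. That outcome was fixed in advance, since leaving out a library cannot create overlap. The exact permutation p of 5 against 4 libraries is then 0.0159. Over the single libraries left out, the ratio of summed TPM ranged from 7.76 to 9.51, and list genes called higher numbered 27 to 33 and lower 1 to 3. The 3 arose without RhoB-/- replicate 3, which added Ninj1 and Rabggtb to Il18. Over all genes tested, same-numbered libraries deviated with correlations of -0.087 to 0.072. Such a correlation cannot show whether same-numbered libraries shared a batch, so whether the numbers pair the libraries is not known. With a replicate block 6 members and 30 list genes were called higher. With pairs as the block, 0 of the 4 members below the filter passed, since 5 sign flips cannot give a p below 0.0625. Centring libraries on their median deviation moved the median of all genes to -0.01 and the calls from 718 higher and 918 lower to 950 and 539, quantile normalization moved them to 845 and 581, and leaving out mitochondrial genes the other way, to 697 and 1471 (median of all genes -0.20). The ratio of mean TPM, an alternative chosen after seeing the data, gave larger changes than the fit, with log2 values of 2.11 for Gbp8 to 4.51 for Gbp3. Read depth, unknown here, limits the members listed under 1 TPM.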
